A study of Rattus norvegicus with 2 samples.

Results

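Ion transporters and sodium pump subunits were examined in the sympathetic neurons of the rat stellate ganglion, the ganglion that sends most sympathetic fibres to the heart. The genes are those whose symbols belong to the families Atp1a, Atp1b, Fxyd, Slc9a, Slc12a, Slc4a and Slc8a, and 46 of the 25395 gene names used have such a symbol. Within these families the symbols alone fixed which genes were included. The families themselves were chosen with earlier results of these data known. Ganglia from normotensive Wistar rats and from prehypertensive SHRs (spontaneously hypertensive rats), both aged 5 to 6 weeks and male, were dissociated with collagenase and trypsin and sequenced as single cells in droplets (scRNAseq). Each strain is 1 library, and the number of animals behind it is not given in the sources used here. No transgene or treatment distinguishes the groups, so that the strain and everything else that separates the 2 libraries cannot be told apart.

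The deposited values give, for the sympathetic neurons of each strain, 1 mean for every gene, expressed here as counts per 10000 counts of a cell. A test between strains needs more than the 1 library that each has here, and neither the number of neurons nor their sequencing depth is in the values, so no value below has an error. A lower mean can come from fewer neurons with the transcript or from less of it in each neuron, and these means do not separate the 2. Droplet counts of this chemistry are tags from the 3′ end of each molecule, which do not grow with gene length, and levels of different genes are set side by side on that scale with no division by length. All 12 sympathetic neuron markers examined were measurable in both libraries, 6 of them lower and 6 higher in SHR. Th, the enzyme that starts catecholamine synthesis, had a mean of 10.2 (Wistar) and 10.1 (SHR). The noradrenergic genes Ddc (means of 7.05 and 3.44), Dbh (10.2 and 6.36) and Slc18a2 (5.36 and 3.63) were lower, and the general neuronal genes Stmn2, Tubb3, Uchl1 and Snap25 were higher by between 1.19-fold and 1.36-fold. Transcripts of glia, fibroblasts and immune cells were lower in the SHR library. All 10 glial markers were lower there, with sums of 10.9 (Wistar) and 3.99 (SHR) per 10000, and Kcnj10, the glial potassium channel gene, was listed at 0.000597 in Wistar and at 0 in SHR. The sums of 5 fibroblast markers were 1.82 and 0.352, and those of 6 immune markers, 5 of them lower, were 1.15 and 0.405. The 4 endothelial markers with a line were lower too (sums of 0.0906 and 0.0242), and of 4 smooth muscle markers 2 were lower and 2 higher. Many of these markers were scarce. Only 7 of the glial, 3 of the fibroblast and 1 of the immune markers averaged at least 0.1 per 10000. None of the endothelial or smooth muscle markers did. Of all genes at or above that level, 65.6% were lower in SHR.

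The sodium pump uses ATP to carry sodium out of the cell and potassium in, and so maintains the gradients that action potentials run down. Its alpha subunit is the catalytic part, its beta subunit is a glycoprotein needed for folding and delivery to the membrane, and FXYD proteins are small membrane proteins that tune its affinity for ions. Many members of the other families spend the sodium gradient, or the potassium gradient, to move protons, chloride, bicarbonate and calcium, and some exchange bicarbonate for chloride. These families set the pH, chloride and calcium levels inside a neuron.

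Of the 46 genes, 23 averaged at least 0.1 per 10000 over both libraries and are called measurable here. The other 23 lay under this minimum, and 5 of them were listed at 0 in both libraries. Among the 23 measurable genes, 20 (87.0%) were lower in SHR and 3 were higher, where 65.6% of the 7621 measurable genes of the transcriptome were lower. A difference of at least 1.5-fold in the ratio of the means was used as a fixed rule of size. By this rule 11 of the 23 genes (47.8%) were lower in SHR against 26.5% of all measurable genes, and 1 gene (4.35%) was higher against 5.22%. The median log2 ratio, SHR over Wistar, was -0.52 for the 23 genes and -0.21 for all measurable genes. Since the typical gene sat at -0.21, log2 ratios after moving this median to 0 are also given where they alter the picture, and they are called centred.

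**Figure D1:**
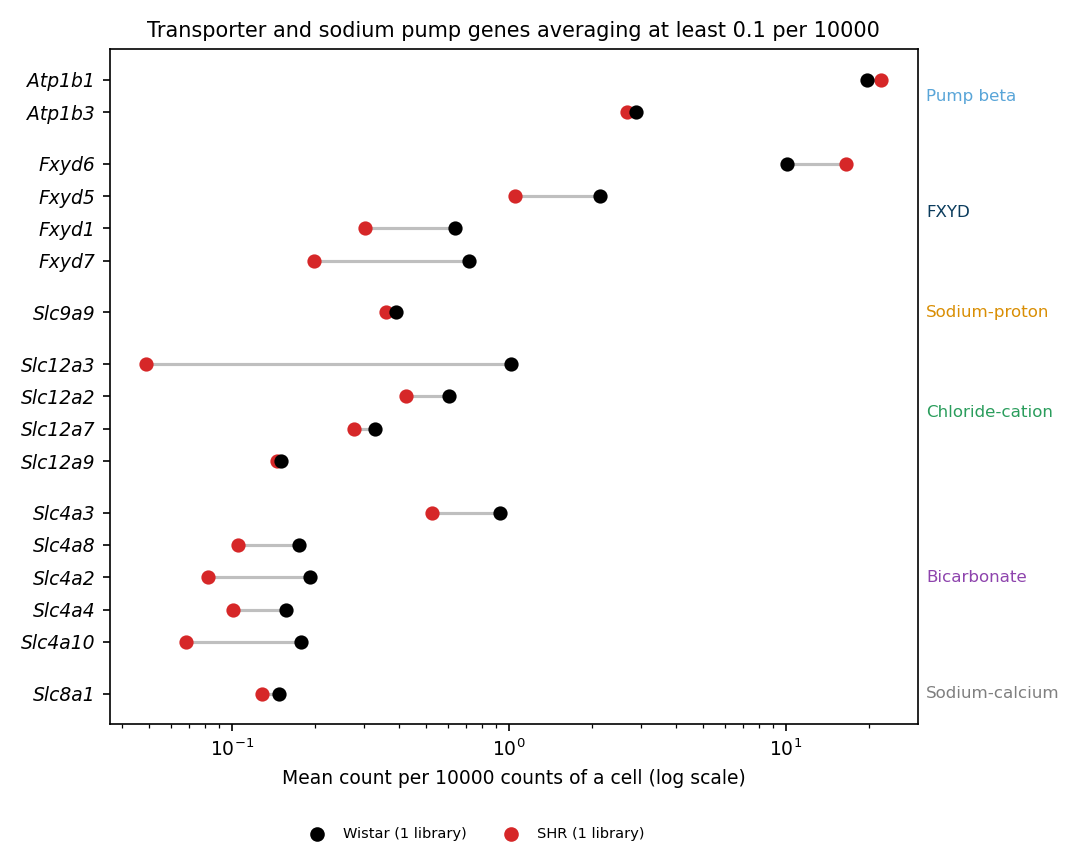
Mean count per 10000 counts of a cell (log scale) of 17 of the 23 measurable transporter and sodium pump genes, with Wistar in black and SHR in red and 1 library each. Atp1b1 and Fxyd6 lie above 10 in both libraries, and the widest gap is that of Slc12a3, from 1.02 to 0.0490.

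The sodium pump genes were by far the most abundant of these families. All 15 together summed to 60.9 per 10000 in Wistar neurons and 62.3 in SHR neurons, a log2 ratio of 0.034. The centred value was 0.25. Genes averaging above 10 per 10000, among them Atp1b1 and Fxyd6, had a median log2 ratio of 0.23 before centring. The beta subunit genes summed to 22.5 and 24.8 and the FXYD genes to 13.6 and 18.0, so that both sums were higher in SHR. Atp1a4, the alpha subunit of sperm, was listed at 0 in both libraries.

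Atp1b1 was the leading beta subunit gene, with 87.0% of the beta transcripts in Wistar and 89.1% in SHR. The mean of Atp1b1 was 19.6 (Wistar) and 22.1 (SHR) per 10000, a log2 ratio of 0.17. Atp1b3, the second beta subunit, had a mean of 2.86 per 10000 in Wistar neurons and 2.67 in SHR neurons, and its log2 ratio of -0.10 became 0.11 when centred. Atp1b2, a beta subunit also known as a glial adhesion molecule, was under the minimum with 0.0455 and 0.0209 per 10000. Atp1b4 was listed at 0 in Wistar and at 0.0125 in SHR.

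Fxyd6, the phosphohippolin gene, was the only one of the 23 that was higher in SHR by 1.5-fold. It had a mean of 10.1 per 10000 for Wistar against 16.4 for SHR, 1.63-fold higher, and moved from rank 90 to rank 51. Fxyd6 held 74.1% of the FXYD transcripts in Wistar and 91.1% in SHR. The 3 other measurable FXYD genes were all lower by more than 1.5-fold, where 26.5% of all measurable genes were. Fxyd5, the dysadherin gene, had a mean of 2.14 (Wistar) and 1.05 (SHR) per 10000, 2.03-fold lower. Fxyd7, a regulator described in brain, had a mean of 0.716 per 10000 in Wistar neurons and 0.198 in SHR neurons, 3.61-fold lower. Fxyd1 encodes phospholemman, a regulator best studied in heart muscle, and its mean was 0.638 per 10000 for Wistar against 0.302 for SHR, 2.11-fold lower. The 7 measurable glial markers were lower in SHR as well, by between 1.66-fold (Mbp, a myelin protein) and 5.70-fold (S100b, a calcium-binding protein of glia), and their part in these differences was not tested. Fxyd2, the gamma subunit gene known from kidney, was under the minimum at 0.0115 and 0.0452 per 10000.

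**Figure D2:**
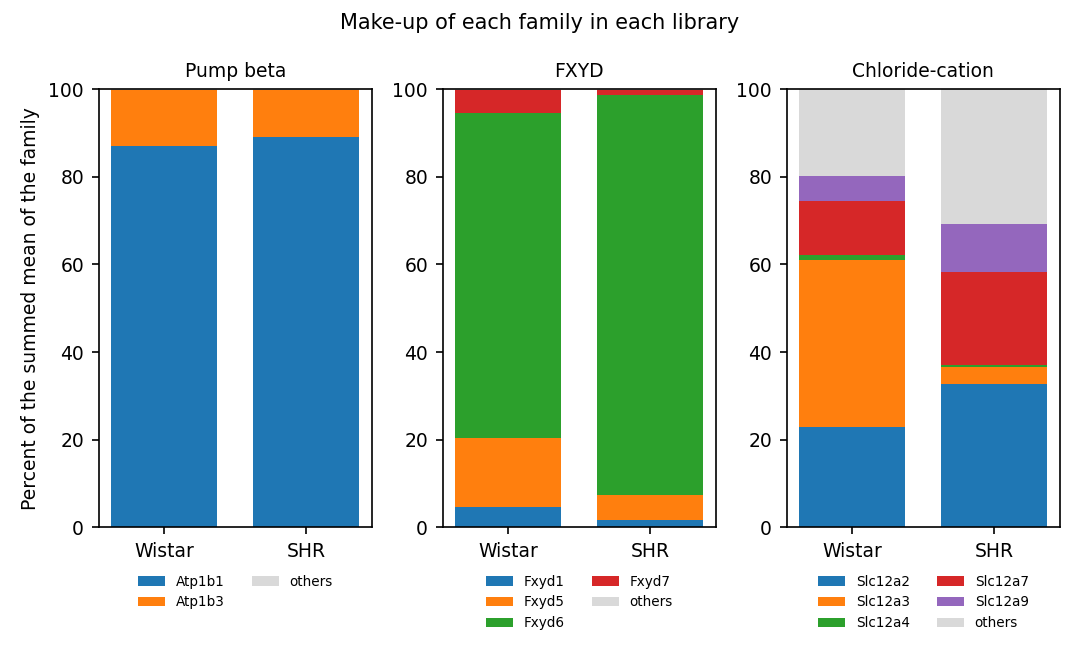
Percent of the summed mean of each family held by each gene, for the beta subunits, the FXYD genes and the chloride-cation cotransporters in the Wistar and SHR libraries; genes under 1% in both libraries and genes not shown are grey. Atp1b1 fills most of its family in both libraries, Fxyd6 goes from 74.1% to 91.1%, and Slc12a3 from 38.2% to 3.78%.

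Sodium-proton exchangers remove acid from the cytosol or set the pH of organelles. The 9 Slc9a genes summed to 2.08 (Wistar) and 1.64 (SHR) per 10000, 1.27-fold lower (centred log2 ratio -0.13). Of them 3 were measurable and all 3 were lower, where 65.6% of all measurable genes were lower. Slc9a9, an endosomal exchanger, was close between the libraries, at 0.391 per 10000 for Wistar against 0.359 for SHR (log2 ratio -0.13, centred 0.086).

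Cation-chloride cotransporters load chloride into neurons together with sodium, or extrude it together with potassium. The 9 Slc12a genes summed to 2.67 per 10000 in Wistar neurons and 1.30 in SHR neurons, 2.06-fold lower, and this sum turned on a single gene. Slc12a3 encodes the thiazide-sensitive sodium-chloride cotransporter, known mainly from the distal tubule of the kidney. In Wistar the neurons had a mean of 1.02 Slc12a3 counts per 10000, the highest level of the family, and in SHR the mean was 0.0490, 20.8-fold lower. The log2 ratio of Slc12a3 was -4.38, the lowest of the 23 genes and the fourth lowest among the 7621 measurable genes. Markers of other cells were lower too, with the widest measurable differences at 5.70-fold for S100b of glia and 8.41-fold for Col1a1, a collagen gene of fibroblasts, and C1qa of macrophages, which lay under the minimum, stood at 0.138 and 0.00727. Their part in the Slc12a3 difference was not tested. In the GRCr8 annotation an uncharacterised gene, LOC120098571, overlaps the span of Slc12a3, and it has no line of its own in the deposited values, so that their reads may not be separable. Nup93, a nuclear pore gene beyond Slc12a3, had a mean of 0.474 per 10000 for Wistar against 0.268 for SHR. Herpud1, an endoplasmic reticulum stress gene on its other side, had 0.536 and 0.438.

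Without Slc12a3 the family summed to 1.65 (Wistar) and 1.25 (SHR) per 10000, 1.32-fold lower, and no other measurable member passed 1.5-fold. Slc12a2, which encodes NKCC1 and brings chloride in, had a mean of 0.609 per 10000 in Wistar neurons and 0.426 in SHR neurons (log2 ratio -0.52). Among the potassium-chloride cotransporters, which take chloride out, Slc12a7 (KCC4) had 0.329 and 0.275 per 10000 (log2 ratio -0.26, centred -0.048). Slc12a5, which encodes KCC2, the chloride extruder of central neurons, was listed at only 0.000257 per 10000 for Wistar against 0.000611 for SHR. Slc12a9, an orphan member of the family, had 0.150 and 0.145 per 10000 (log2 ratio -0.053, centred 0.16).

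The reference promoters of Slc12a3 and Fxyd6 are shown because these genes had the largest difference in each direction among the 23. Each window runs from 250 bases before the start of transcription to 50 after it, is written 5′ to 3′ on the strand of the gene, and comes from RefSeq on GRCr8, a Brown Norway assembly that is neither of the strains studied. Both windows were searched on both strands for 4 motifs that do not overlap each other, and capitals mark the matches. TATAAA is the core of the TATA box and occurs in 14.2% of all 33469 promoters. An E-box of the kind that neuronal bHLH factors can bind, CAGCTG, occurs in 15.1%. The GC box, spelled GGGCGG, occurs in 33.1%, and the CCAAT box in 37.5%. Slc12a3 lies on the minus strand (chr19:10675001-10675300) and Fxyd6 on the plus strand (chr8:54575575-54575874).
Slc12a3: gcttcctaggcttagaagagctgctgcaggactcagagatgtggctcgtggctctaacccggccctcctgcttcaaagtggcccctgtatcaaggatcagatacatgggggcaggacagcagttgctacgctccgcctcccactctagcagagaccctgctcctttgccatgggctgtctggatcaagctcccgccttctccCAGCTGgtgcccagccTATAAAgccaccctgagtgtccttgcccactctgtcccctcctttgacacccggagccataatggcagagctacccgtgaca
Fxyd6: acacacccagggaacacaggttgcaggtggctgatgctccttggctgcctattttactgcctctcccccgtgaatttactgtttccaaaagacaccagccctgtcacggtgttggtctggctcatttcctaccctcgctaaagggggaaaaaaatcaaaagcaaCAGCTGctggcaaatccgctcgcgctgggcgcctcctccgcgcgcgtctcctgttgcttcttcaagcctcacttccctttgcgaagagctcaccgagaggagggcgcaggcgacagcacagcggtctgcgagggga

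The Slc12a3 window holds TATAAA from base -32 and CAGCTG from base -48, counted from the start site of the window. The Fxyd6 window holds CAGCTG from base -86 and none of the other 3 motifs. Of the 33 genes of these families with a promoter in the table, 4 hold TATAAA and 4 hold CAGCTG. These matches describe the letters of the reference and say nothing of binding in these neurons.

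Bicarbonate transporters buffer the cytosol by exchanging bicarbonate for chloride or by carrying it in with sodium. The 10 Slc4a genes summed to 1.73 (Wistar) and 0.933 (SHR) per 10000, 1.85-fold lower. All 5 measurable members were lower by more than 1.5-fold, where 26.5% of all measurable genes were. Apart from Slc4a3 they averaged between 0.1 and 0.3 per 10000, a range in which the share was 37.0%. Without Slc4a3, the most abundant, the log2 ratio of the sum was -0.97 in place of -0.89. Slc4a3, the chloride-bicarbonate exchanger AE3 of excitable tissues, had a mean of 0.926 per 10000 in Wistar neurons and 0.526 in SHR neurons, 1.76-fold lower. Slc4a2, the more widely expressed exchanger AE2, had 0.191 and 0.0821 per 10000, 2.33-fold lower. The sodium-coupled members were lower as well. Slc4a10, a sodium-dependent transporter of neurons, had 0.177 per 10000 for Wistar against 0.0680 for SHR, 2.60-fold lower. Slc4a8, the sodium-driven chloride-bicarbonate exchanger, had 0.174 and 0.105 (1.66-fold lower), and Slc4a4, the electrogenic cotransporter NBCe1, had 0.156 and 0.101 (1.55-fold lower). Slc4a8 and Slc4a4 no longer passed 1.5-fold when centred, with log2 ratios of -0.52 and -0.42, whereas Slc4a3 was just past it at -0.61. Slc4a1, the band 3 exchanger of erythrocytes, was listed at 0 in both libraries.

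Sodium-calcium exchangers extrude calcium at the expense of the sodium gradient and had the lowest levels of the 5 groups. The 3 Slc8a genes summed to 0.234 (Wistar) and 0.163 (SHR) per 10000, 1.43-fold lower. Slc8a1, the exchanger best known from heart muscle, was the only measurable one, with a mean of 0.148 per 10000 in Wistar neurons and 0.128 in SHR neurons. The log2 ratio of Slc8a1 was -0.20 (centred 0.0097), so it did not stand apart from the typical gene. Slc8a2 had 0.0460 and 0.0214 per 10000, and Slc8a3 had 0.0402 and 0.0133. Both were under the minimum, and most of the fall in the sum of the group came from them.

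**Figure D3:**
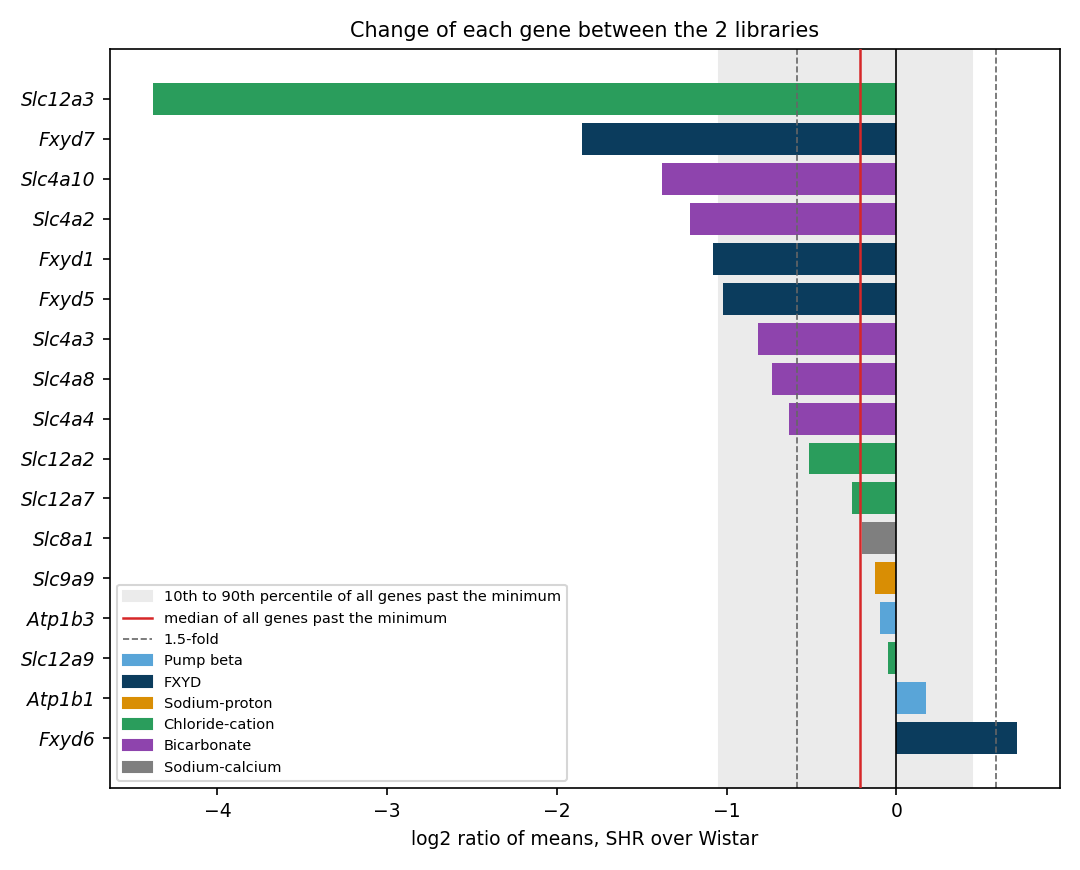
The log2 ratio of the means (SHR over Wistar) of 17 of the 23 measurable genes, coloured by family, beside the median of all measurable genes (red line, -0.21), the range from their 10th to 90th percentile (grey, -1.04 to 0.45) and 1.5-fold (dashed). Slc12a3 (-4.38) and Fxyd7 (-1.85) lie farthest below the grey range and Fxyd6 (0.71) is above it; Slc8a1, Slc9a9, Atp1b3 and Slc12a9 lie between the red line and 0 and change sign when the red line is taken as 0.

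The size of a difference went with the level of a gene across the whole transcriptome. Genes averaging from 0.1 to 0.3 per 10000 had a median log2 ratio of -0.38, and 37.0% of them were lower in SHR by 1.5-fold, compared with 5 of the 7 transporter genes in that range. From 0.3 to 1 per 10000 the median was -0.21 and 24.5% were lower by 1.5-fold, compared with 5 of 10. From 1 to 10 per 10000 the median was 0.048 and the share 12.0%, and of the 3 transporter and pump genes in that range Fxyd5 was lower by 1.5-fold and Atp1b3 was not. Above 10 per 10000 the median was 0.23 and the share 5.32%, and neither Atp1b1 nor Fxyd6 was lower by 1.5-fold. In that range 19.15% of genes were higher in SHR by 1.5-fold, as Fxyd6 was, beside 5.22% of all measurable genes.

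**Figure D4:**
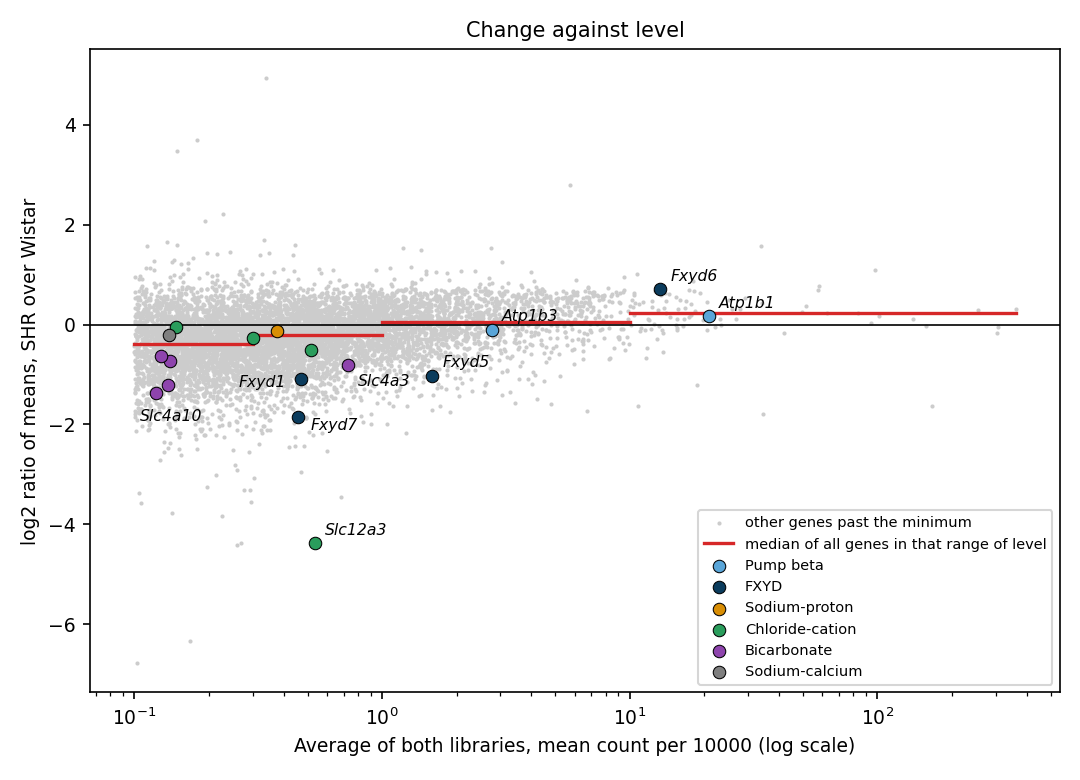
The log2 ratio of the means (SHR over Wistar) against the average of both libraries in counts per 10000 (log scale). Grey points are the measurable genes outside these families, and 17 of the 23 transporter and pump genes are coloured by family. Red lines give the median of all 7621 measurable genes by range of level, from -0.38 at the lowest to 0.23 at the highest. Most of the coloured points sit below 0 among grey points of like level, and Slc12a3 sits far below its neighbours.

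Gene length also went with the difference. The measurable genes were ranked by their span in GRCr8 and cut into 10 equal groups, in which the share lower by 1.5-fold went from 8.64% in the shortest to 46.8% in the longest. The 4 transporter genes in the longest group were Slc4a4, Slc4a10, Slc8a1 and Slc9a9, and Slc4a4 and Slc4a10 were lower by 1.5-fold. The FXYD genes that were lower are shorter. Fxyd1 is in the shortest group, where 27.9% of genes were lower in SHR at any size, and Fxyd5 and Fxyd7 are in the third group, where 19.0% were lower by 1.5-fold. Fxyd6 is in the sixth group together with Atp1b3, and 23.2% of that group were lower by 1.5-fold.

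Members under the minimum of 0.1 per 10000 were too scarce for their ratios to be read. The highest of them was Slc4a7, a sodium-bicarbonate cotransporter gene, at 0.0760 per 10000 for Wistar against 0.0160 for SHR, with an average of 0.0460. The measurable gene nearest to the limit was Slc4a10, with an average of 0.122. In each library 17 of the 23 were above 0, and 11 were lower and 7 higher in SHR. Over all gene names used, 16000 were above 0 in Wistar and 14645 in SHR. The share lower among all genes under the minimum was not computed, so the count of 11 has no background beside it. The smallest mean above 0 of any gene was 0.00014 (Wistar) and 0.000391 (SHR) per 10000. The main kidney cotransporter Slc12a1 (NKCC2) stood at 0.00816 and 0.00793, and Slc9a3, the exchanger of kidney and gut epithelium, at 0.000606 and 0.000751. Slc12a4 (KCC1) had 0.0299 per 10000 in Wistar neurons and 0.00493 in SHR neurons. Of the remaining exchangers, Slc9a5, described in neurons, had 0.0352 and 0.0167, and of the Golgi members Slc9a7 had 0.0270 and 0.0115, and Slc9a8 had 0.00964 and 0.0195.

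**Figure D5:**
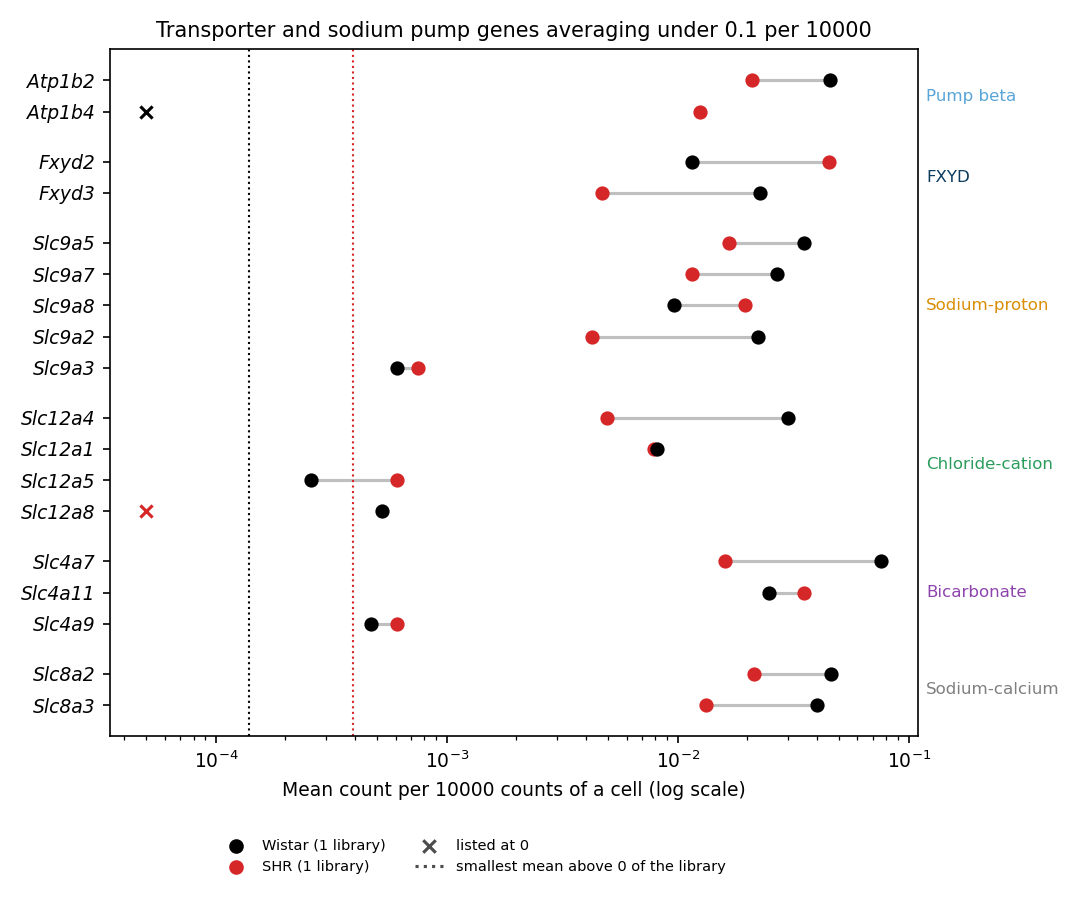
Mean count per 10000 counts of a cell (log scale) of the 18 genes that averaged under 0.1 but were above 0 in at least 1 library, with Wistar in black and SHR in red, crosses at the left edge for values listed at 0, and dotted lines at the smallest mean above 0 of any gene in each library (0.00014 and 0.000391). Wistar is the higher of the pair for 11 genes, and the 7 exceptions are Atp1b4, Fxyd2, Slc9a8, Slc9a3, Slc12a5, Slc4a11 and Slc4a9.

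Regulators and neighbouring transporters were taken from a list of 35 genes, of which 10 were measurable, 8 of them lower and 2 higher in SHR, where 65.6% of all measurable genes were lower. By 1.5-fold 2 were lower and 1 was higher, beside 26.5% and 5.22% of all measurable genes, with a median log2 ratio of -0.38. The WNK kinases act through Stk39 and Oxsr1 to switch chloride loading on and extrusion off, and all 5 measurable genes of this cascade were lower. They lie in the 3 groups of longest genes, in which from 82.2% to 86.0% of genes were lower, so that the count is near its background. Wnk1 had a mean of 2.12 per 10000 for Wistar against 1.46 for SHR (log2 ratio -0.54), Wnk2 had 0.477 and 0.305 (-0.64), and Oxsr1 had 0.708 and 0.489 (-0.54). Stk39, the SPAK kinase gene, had 1.12 and 0.963 (log2 ratio -0.22), and Cab39, which activates both downstream kinases, had 2.06 and 1.84 (-0.16, centred 0.053). Wnk2 alone of these passed 1.5-fold, and no longer did so when centred (-0.43). Of the 3 measurable partners of the sodium-proton exchangers 2 were higher, where 65.6% of all measurable genes were lower. Chp1, an obligatory cofactor of these exchangers, had a mean of 3.05 (Wistar) and 4.25 (SHR) per 10000 (log2 ratio 0.48). Among genes averaging from 1 to 10 per 10000, as Chp1 did, 46.5% were lower. Tesc, a related calcium-binding partner, had 0.0842 and 0.200, 2.37-fold higher, with an average of 0.142 near the minimum. The third, the scaffold gene Slc9a3r2, had 0.156 and 0.150 (log2 ratio -0.050, centred 0.16). Ahcyl1, which encodes the regulator IRBIT of NBCe1, had 1.03 per 10000 in Wistar neurons and 0.592 in SHR neurons, 1.75-fold lower. Slc8b1, the mitochondrial sodium-calcium exchanger, had 0.176 and 0.120 (log2 ratio -0.56). None of the 4 Nkain genes, whose products bind pump beta subunits, reached the minimum.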

How the data were processed

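Dissociated stellate ganglia were processed with the 10x Genomics 3′ v3 chemistry, and the submitters' processing notes name Cell Ranger 3.0.2, Seurat 3 and the build Rnor_6.0. Cell filters, doublet handling and neuron numbers are not given in the sources used here. The authors deposited, for each strain, values on a natural log scale, ln(1 + x), in which x is the neuron cluster's average of normalised counts. Taken back with the exponential function, the 25399 lines sum to 10000 in each library. Names occurring more than once (4 lines) were dropped. A further deposited table holds the authors' own comparison of the strains (fold changes, p-values and cell shares) and was not used.

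Means, ratios and sums were computed with Python 3.11.15, NumPy 2.4.6 and pandas 2.3.3. The scripts were tested on simulated means with known changes and no noise, which checks the arithmetic only. Calls required an average of at least 0.1 per 10000 and a ratio of at least 1.5-fold. Genes of the families were named under this rule, except some that, with results resting on them, are not reported here; counts and group sums include them. Of the 35 regulators and related genes, the measurable ones could. Families, lists and rules were chosen with earlier results of these data known. GRCr8 spans, matched by symbol for 92.8% of measurable genes and all 23 transporter genes, were used as ranks only. Other pseudocounts, minimums, size limits and library scalings were tried. The depth behind each mean is unknown, so no interval is given.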

Additional observations from a re-analysis of the deposited data

How the results depend on the processing

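No replicate could be left out. No paired analysis was possible because there is 1 library on either side. The count of 11 genes lower by 1.5-fold became 2 (Slc12a3 and Fxyd5) on the scale of the deposited logs, where 1 is added to each mean, against 1.26% of all measurable genes. With no minimum, among genes above 0 in both libraries, it became 20 of 39, against 35.8% of 14256 such genes. It became 1 of 6 with a minimum of 1 per 10000, against 11.6%. With 0.1 added it was 9 (17.0% of all measurable genes), at 2-fold it was 8 (11.3%), and with the median of all genes set to 0 it was 9 (17.3%). The count of 1 gene higher became 4 of 39 with no minimum, against 11.6% of the 14256 genes above 0 in both libraries. At 2-fold it became 0 of 23, against 0.761%. Setting the median to 0 adds 0.21 to every log2 ratio, and totals without the mitochondrial transcripts and ribosomal proteins add 0.040. With the median at 0 the log2 ratios of the sums were 0.25 for the sodium pump, -0.13 for the sodium-proton, -0.83 for the chloride-cation, -0.68 for the bicarbonate and -0.31 for the sodium-calcium group. The single genes named that changed sign were Atp1b3 (0.11), Slc12a9 (0.16), Slc8a1 (0.0097) and Slc9a9 (0.086). Without its most abundant gene, the sum became -0.40 for the chloride-cation (no Slc12a3) and -1.31 for the sodium-calcium group (no Slc8a1). The latter value rests only on genes under the minimum, too scarce for their ratios to be read. The totals without mitochondrial transcripts and ribosomal proteins, and those without the marker genes of glia and the other non-neuronal cells, turned the direction of none of the 17 genes shown and of none of the 5 sums. These scalings shift every log2 ratio alike, by 0.040 and -0.0013, which was too little to turn any of them. Leaving marker genes out of the totals does not remove transcripts of other cells from the means, so their part was not tested.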

Other observations

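In the RefSeq order of GRCr8, Fxyd5, Fxyd7, Fxyd1, Lgi4 and Fxyd3 follow each other. The first 4 are measurable and were lower in SHR, where 65.6% of all measurable genes were lower. Lgi4, the product of which is secreted by peripheral glia, had a mean of 0.242 per 10000 for Wistar against 0.0759 for SHR, and Fxyd3 lay under the minimum with 0.0227 and 0.00468. Fxyd6 lies elsewhere in the genome, next to Fxyd2, which is under the minimum. The nearest measurable gene to Fxyd6 among the 3 listed on each side was Cep164, a centrosome gene, with 0.187 (Wistar) and 0.0906 (SHR) per 10000, the opposite direction to Fxyd6.

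Slc12a3 was looked at beside other kidney genes, a choice made after its values were seen. Of 11 genes known from the nephron, 8 were listed at 0 in both libraries, among them Umod, Pvalb, Aqp2 and Cdh16. Trpm6, a magnesium channel gene of the distal tubule, was listed at 0.000301 per 10000 in Wistar neurons and 0 in SHR neurons, and Slc5a2, a glucose transporter gene, at 0 and 0.000717. Calb1, which neurons also express, had a mean of 0.132 (Wistar) and 0.0518 (SHR). Slc12a3 was at 1.02 in the same Wistar neurons.

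Carbonic anhydrases feed the bicarbonate transporters, and the genes of this paragraph were named after their values were seen. Of the 6 carbonic anhydrase genes on the list of 35, none was measurable. Car11, a relative outside the list, was, with means of 1.51 (Wistar) and 1.25 (SHR). Car2 had a mean of 0.116 per 10000 for Wistar against 0.0260 for SHR, and Car3, Car7 and Car14 were listed at 0 in both. Slc9b2, an exchanger gene outside the Slc9a family, had 0.116 and 0.0390, and the proton-potassium pump genes Atp12a and Atp4b were listed at 0 in both libraries.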
